A study of Mus musculus with 7 samples.

Results

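Notch4, Nrarp, Hes1 and Hey1 are a receptor of the Notch pathway and 3 genes that the pathway switches on. They were followed in cells sorted from the mouse mammary gland. The genes were found by gene number or symbol in the authors' deposited list of probe sets that differed between the sorted populations. There the 4 genes have 5 probe sets (Hey1 has 2), of 45101 probe sets on the array. The list had been made from this same comparison on these same arrays, so the differences between the populations below are a description of chosen genes and not independent evidence of a direction.

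The cells of interest are the mammary side population (SP), 3 samples gated by their low fluorescence after staining with a Hoechst dye, because they pump the dye out. They were compared with the non-side population (NSP), 3 samples of stained cells gated outside that region in the same kind of sort. A single array of universal mouse reference RNA (Stratagene), a pool of RNA from mouse cell lines, serves as a common yardstick. Strain, age and number of animals are not given in the sources used here, both populations are mixtures of cell types defined only by dye, and the RNA of both was amplified in repeated rounds before hybridization to Affymetrix mouse arrays. SP and NSP samples carry the same numbers, 1 to 3, and were treated as pairs. The labels do not say if each sort used its own animals, so the p-values cover the spread among these samples only, and part of that spread may be technical.

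Notch receptors are single-pass membrane proteins that are cut when a ligand on a neighbouring cell binds them. The freed intracellular part enters the nucleus, joins the DNA-binding protein RBPJ and activates genes such as Hes1, Hey1 and Nrarp. In the mammary gland Notch signalling is known for its part in luminal cell fate, and Notch4 was found as Int3, a gene activated by insertions of the mouse mammary tumour virus. In normal adult tissue Notch4 is known mainly from endothelial cells.

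The start-site windows of the receptor gene Notch4 and the target gene Nrarp are shown, the 2 of the 4 members for which a RefSeq window was matched. They are on build GRCm38.p6, both on the plus strand, each with 250 bases before and 50 after the start. The window of Notch4 is chr17:34564045-34564344 and that of Nrarp is chr2:25180508-25180807. Capitals mark matches to TGACTCA, a letter sequence of AP-1 (Fos and Jun) sites, and to CACGTG, an E-box sequence of a kind that basic helix-loop-helix proteins bind.
Notch4: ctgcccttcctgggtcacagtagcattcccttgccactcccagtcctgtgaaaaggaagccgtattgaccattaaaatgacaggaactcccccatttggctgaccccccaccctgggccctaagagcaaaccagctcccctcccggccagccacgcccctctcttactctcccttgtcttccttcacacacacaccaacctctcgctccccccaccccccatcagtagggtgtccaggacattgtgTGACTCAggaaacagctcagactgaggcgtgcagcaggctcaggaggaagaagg
Nrarp: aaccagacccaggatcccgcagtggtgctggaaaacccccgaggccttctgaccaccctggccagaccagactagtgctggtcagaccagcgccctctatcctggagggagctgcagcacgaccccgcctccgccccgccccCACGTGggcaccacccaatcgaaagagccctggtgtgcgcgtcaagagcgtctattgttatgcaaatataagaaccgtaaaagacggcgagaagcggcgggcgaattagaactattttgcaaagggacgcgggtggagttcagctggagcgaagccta

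The Notch4 window holds TGACTCA at its bases 247 to 253, across the annotated start, and 5.20% of the 32851 promoter windows in the table hold that motif on either strand. The Nrarp window holds CACGTG at its bases 143 to 148, and 7.15% of all windows do. The core letters of an RBPJ site, TGGGAA on either strand, are in neither window and are in 25.6% of all windows. The 3 motifs do not overlap one another in these windows, they were chosen after the sequences were seen, and a match is a description of letters only. Windows for Hes1 and Hey1 are not used here.

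All 5 probe sets had a higher signal in the SP than in the NSP sample in all 3 pairs. Signals are linear MAS5 intensities. Before log2 was taken, values below a floor of 17 (the 20th percentile over the arrays of sorted cells) were raised to it. Of all 38115 probe sets tested, 16.3% were higher in SP in all 3 pairs, as were 602 of the 751 probe sets that the authors' deposited table gives as higher in SP. The median difference of the 5 was 0.85 on the log2 scale, against -0.0080 for all probe sets tested and 0.43 for those 751. The signals of every array are given below gene by gene, the receptor first.

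**Figure D1:**
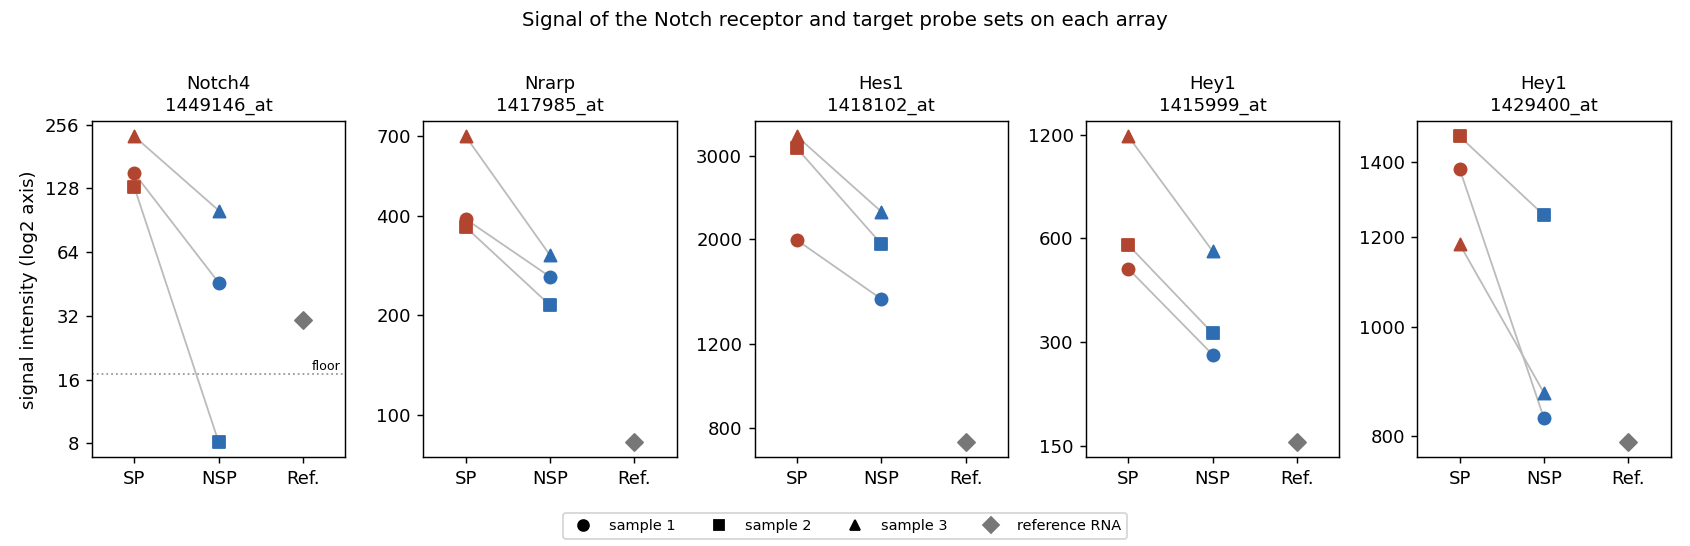
Signal intensity (log2 axis) of the 5 probe sets in SP samples (left), NSP samples (middle) and the reference RNA (right). Each point is 1 array, symbols mark the sample number and grey lines join the SP and NSP samples of a number. All 15 lines run downwards from SP to NSP, and the NSP signal of Notch4 in sample 2 (8.1) lies under the floor of 17 (dotted).

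Notch4 (probe set 1449146_at) had signals of 150.7, 129.5 and 225.3 in SP samples 1 to 3, against 45.9, 8.1 and 100.6 in NSP samples 1 to 3. The lowest SP sample lay above the highest NSP sample, so the groups did not overlap. The signal of 8.1 in NSP sample 2 is under the floor, and in the authors' deposited table that array alone has an absent call for Notch4, with present calls in 66% of NSP and 100% of SP samples. On the log2 scale the difference was 1.94 ± 0.41 (moderated SE, 3 pairs), a 3.83-fold difference, with a limma adjusted p of 0.402. Its size depends on the dim NSP signals. A floor at the 40th percentile gave 1.26 and one at the 10th gave 2.29, and it was 1.44 without pair 2 and 2.32 without pair 3. In the authors' deposited table, which uses dChip model values on a log scale whose base it does not name, the difference was 0.67 when read as log2.

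Nrarp (1417985_at) encodes a small ankyrin-repeat protein that Notch induces and that dampens Notch signalling in turn. Its signals were 391, 369.9 and 696.2 in SP samples 1 to 3, against 261.6, 214.5 and 304 in NSP samples 1 to 3. The groups did not overlap, and SP sample 3 stood well above the other two SP samples. The log2 difference was 0.85 ± 0.20 (1.81-fold, limma adjusted p = 0.416). In the authors' deposited table it was 0.27, with SP values of 8.61, 8.62 and 9.01 and NSP values of 8.26, 8.42 and 8.75, which overlap between the groups.

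Hes1 (1418102_at), a basic helix-loop-helix repressor and a classic Notch target, had signals of 1991.3, 3111.9 and 3298.5 in SP samples 1 to 3, against 1495.9, 1954.2 and 2287 in NSP samples 1 to 3. The groups overlapped, because SP sample 1 lay below NSP sample 3. Within pairs the log2 differences were close to one another, at 0.41, 0.67 and 0.53. Their fitted value was 0.54 ± 0.16 (1.45-fold, limma adjusted p = 0.463), and in the authors' deposited table it was 0.29.

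Hey1, a related repressor that acts downstream of Notch in vessels and elsewhere, is the only member read by more than 1 probe set on the list. Probe set 1415999_at had signals of 489.6, 573.8 and 1186 in SP samples 1 to 3, against 275.8, 318.3 and 550.6 in NSP samples 1 to 3. Sample 3 was highest in both populations, and the groups overlapped only because SP sample 1 lay below NSP sample 3. Its log2 difference was 0.93 ± 0.16 (1.90-fold, limma adjusted p = 0.387), with 0.83, 0.85 and 1.11 in the 3 pairs.

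The other Hey1 probe set, 1429400_at, had signals of 1380, 1474.8 and 1183.6 in SP samples 1 to 3, against 829.6, 1255.5 and 873.7 in NSP samples 1 to 3. Here sample 2 was highest in both populations and SP sample 3 was the lowest SP sample, which is not the order given by 1415999_at. Its groups overlapped through NSP sample 2, and its log2 difference was 0.47 ± 0.18 (1.38-fold, limma adjusted p = 0.541). The Hey1 probe sets thus gave the same direction but a different order of the samples. Over the 6 sorted-cell arrays their log2 signals had a Pearson r of 0.30. Both had been chosen on this contrast, so the shared direction is a description. Any probe sets of the members outside the authors' list could not be named. The authors' deposited table has them at 0.87 and 0.40, and 1415999_at is the single member probe set on the authors' shortest list of 90.

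In all, 2 of the 5 probe sets (Notch4 and Nrarp) had SP signals wholly above the NSP signals, against 6.74% of all probe sets tested and 366 of the 751 above. None of the 5 passed an adjusted p of 0.05 in limma with the pairs as a block, where 0.0% of the 38115 probe sets did. At an unadjusted p under 0.05 limma had 3758 probe sets, 4.77% of all being higher in SP, and 4 of the 5 were among these. The methods' t-test on pairs, run here on the floored signals and not on the dChip values, also passed 0 after Benjamini-Hochberg adjustment. Its count at an unadjusted p under 0.05 was 3265. The authors' paired test on dChip values gave unadjusted p of 0.0219 for Notch4, 0.0218 for Nrarp and 0.0237 for Hes1. It gave 0.00523 for Hey1 1415999_at and 0.00557 for 1429400_at. A paired p of at most 0.05 was a condition of their list. When limma let the variance depend on intensity, 942 probe sets passed, and 1.16% of all were higher in SP. Among them were Hes1 (adjusted p = 0.0115) and Hey1 1415999_at (0.00995), whereas Nrarp (0.0523), Notch4 (0.0729) and Hey1 1429400_at (0.0858) did not pass. Both calls were lost with the trend and no replicate block (adjusted p = 0.358 for Hes1 and 0.311 for Hey1 1415999_at). The authors had chosen the genes on this contrast, so nothing is read from the members' share against these percentages.

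**Figure D2:**
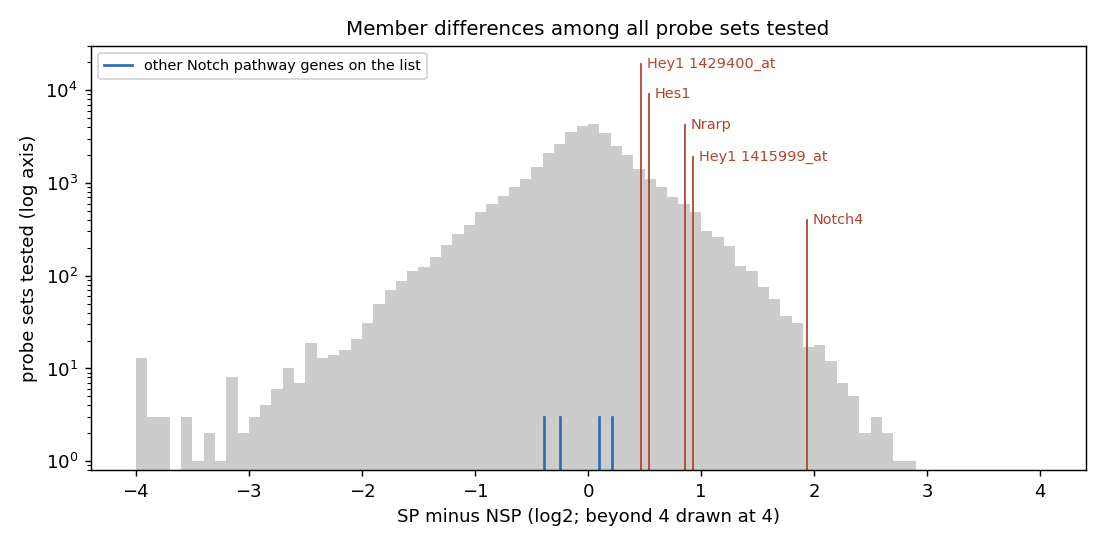
SP minus NSP difference (log2) of all 38115 probe sets tested (grey, counts on a log axis), with the members as red lines (height has no meaning) and 4 other Notch pathway genes as short blue lines. The members lie between 0.47 and 1.94, and the other genes between -0.39 and 0.21.

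The expression measure changed the size of the differences more than their direction. The values of the authors' deposited table were read as log2, and the log base is not settled. On bright probe sets of the 6 arrays the values had median offsets between -0.57 and -0.48 from log2 of the signals and slopes of 0.79 to 0.84 against it. Read as natural logs, they would stand for levels 12.7 to 13.5 times the signals, against 0.672 to 0.715 times when read as log2. The titles of the authors' lists lie nearer the other reading. Minimum differences of 0.185, 0.4 and 0.7 stand for folds of 1.2, 1.49 and 2.01 as natural logs, against 1.14, 1.32 and 1.62 as log2, and the titles give 1.2, 1.5 and 2.

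Whether the groups overlapped also depended on the measure. In the authors' deposited table Hes1 had 10.94, 11.19 and 11.14 in SP samples, against 10.72, 10.81 and 10.86 in NSP samples, with no overlap. Notch4 had 8.01, 8.09 and 8.10 in SP and 7.54, 7.30 and 7.33 in NSP samples there, also with no overlap. In that table all 15 within-pair differences of the 5 probe sets were above 0, from 0.20 for Nrarp in pair 2 to 1.00 for Hey1 1415999_at in pair 3. Read as log2, the difference of Hey1 1415999_at was 0.87 in the authors' deposited table against 0.93 on the signals, and that of 1429400_at was 0.40 against 0.47. For Notch4, Nrarp and Hes1 the authors' deposited table then gave smaller values, by more than the SD of the pair differences on the signals (0.90, 0.31 and 0.13). Read as natural logs and turned to log2, the values of the authors' deposited table would be 0.97 for Notch4, 0.39 for Nrarp and 0.42 for Hes1. Hes1 would then lie within that SD of its signal value, Notch4 and Nrarp would still be smaller by more than it, and Hey1 1415999_at would be larger, at 1.26.

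**Figure D3:**
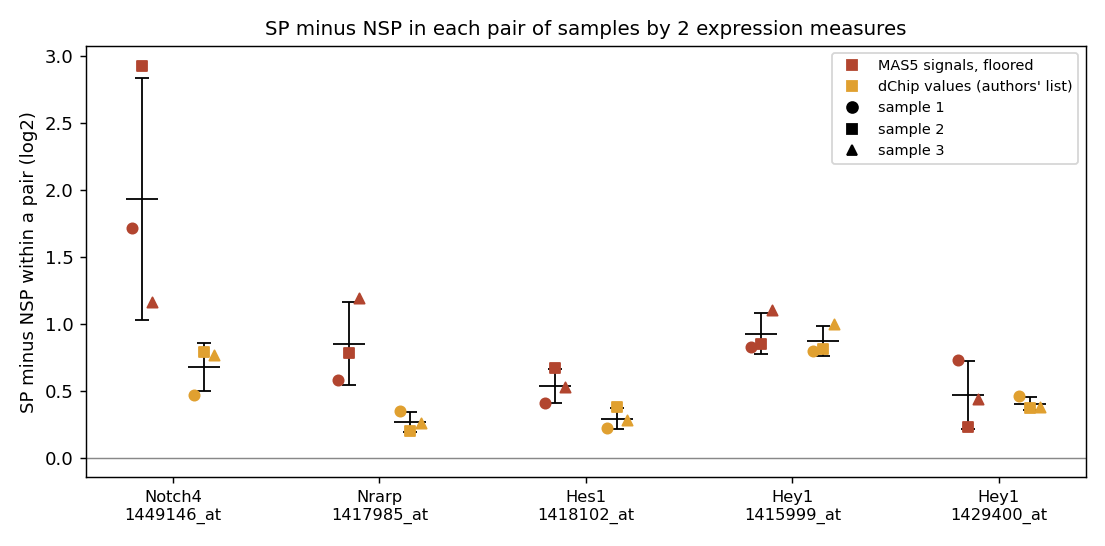
SP minus NSP in each pair (log2) for the 5 probe sets, from MAS5 signals (red) and from the dChip values of the authors' deposited table read as log2 (yellow). Symbols mark the sample number, bars the mean ± SD of 3 pairs. All points lie above 0, and the 2 measures are furthest apart for Notch4 (1.94 and 0.67).

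Both sorted populations had more signal than the reference RNA for all the members on average. With 1 reference array there is no test. All 3 SP arrays lay above the reference array for 5 of the 5 probe sets, as they did for 28.5% of all probe sets tested. All 3 NSP arrays did so for 4 of the 5, against 28.3% of all probe sets. The exception was Notch4, where the reference signal of 30.7 lay above NSP sample 2. Nrarp was 5.63-fold above the reference in SP and 3.12-fold in NSP samples, with a reference signal of 82.6. Hes1 was 3.67-fold above it in SP and 2.53-fold in NSP (reference 745.9), and Hey1 1415999_at 4.51-fold and 2.37-fold (reference 153.7).

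Hey1 1429400_at was 1.70-fold above the reference in SP samples, the smallest SP value of the 5, and 1.23-fold above it in NSP samples (reference 790.2). Notch4 was 2.42 ± 0.41 above the reference on the log2 scale in SP samples and 0.48 ± 1.29 in NSP samples (SD, n = 3). The NSP value of Notch4 was 0.12 when the floor was the 10th percentile and turned to -0.14 without sample 3, against 0.37 for Hey1 1429400_at without that sample, so the order of these NSP values depends on the floor and on sample 3. Among all probe sets, 13.3% had an SP mean over 2-fold above the reference and 13.1% an NSP mean.

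**Figure D4:**
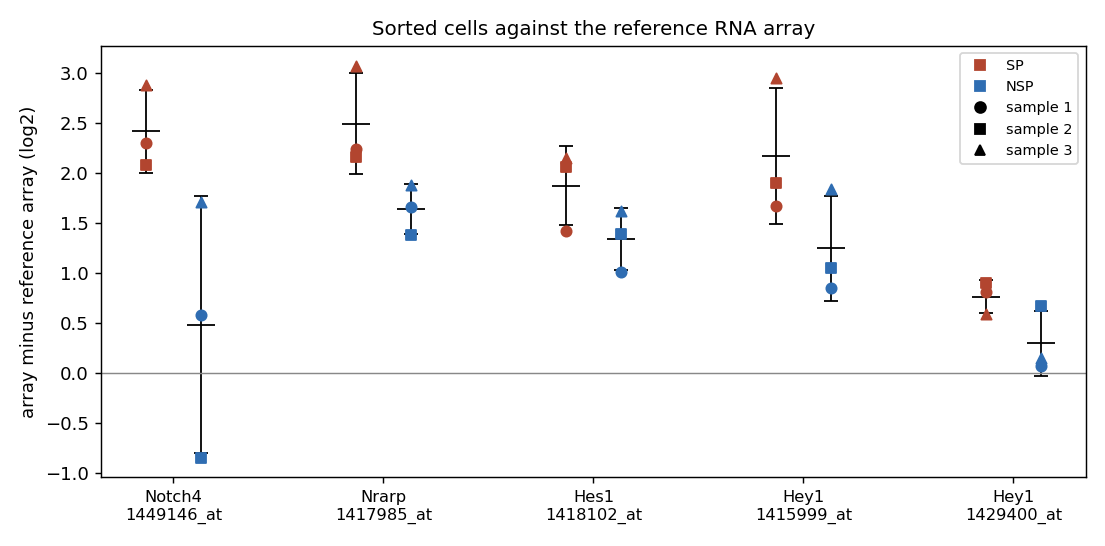
Log2 signal of each sorted-cell array minus that of the reference array, for SP (red) and NSP (blue). Symbols mark the sample number and bars the mean ± SD of 3 arrays. Only Notch4 in NSP sample 2, set to the floor, lies below 0.

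Other genes of the pathway were taken from a list of 65, of which 8 are named in the authors' deposited list, the 4 members included. The other 57, among them all the ligand genes, have no name in the tables used and are not analysed here. The 4 further genes, being on that list, had also been chosen on this contrast. Of these 4 genes 0 passed in limma with the pairs as a block, and 0 passed with the intensity trend. At an unadjusted p under 0.05 limma had 0 of them with the block alone and 2 with the trend, Adam10 (0.0154) and Kat2a (0.0351), both lower in SP, as were 6.76% of all probe sets tested at that threshold with the trend. Notch1, another receptor of the pathway, had signals of 1652.5, 1892.9 and 2061.1 in SP samples, against 1375.2, 1530 and 1973.7 in NSP samples. It was higher in SP in all 3 pairs, as were 16.3% of all probe sets tested, by 0.21 ± 0.16 (limma adjusted p = 0.703). The groups overlapped, and the authors' deposited table also has 0.21.

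Adam10, the protease that makes the first ligand-triggered cut in the receptor, had SP signals of 9731.4, 8377.5 and 9015.3 against NSP signals of 11154.6, 11673 and 9395.8. It was lower in SP in all 3 pairs, as were 16.8% of all probe sets tested, by a log2 difference of -0.25 ± 0.17 (limma adjusted p = 0.691). The groups overlapped, and the authors' deposited table has -0.27.

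Among nuclear factors, Kat2a, a histone acetyltransferase, differed by -0.39 ± 0.18 (limma adjusted p = 0.576) and was also lower in all 3 pairs. For Kat2a the authors' deposited table has -0.2. Spen, a corepressor that binds RBPJ, differed by 0.096 ± 0.22 (limma adjusted p = 0.912). Its pairs went both ways on the signals (0.13, -0.31 and 0.47), while the authors' deposited table has 0.22. The median difference of the 4 was -0.075, against -0.0080 for all probe sets tested. The members' higher SP signals were therefore not shared by every pathway gene on the list.

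Markers of other cell types were summed on the same arrays. Each gene was counted by 1 probe set, that of highest mean signal in the sorted cells, so further probe sets of a gene are left out. A marker could be named only if it was on the authors' list, so the named markers had been chosen on this same contrast, and their direction is a description. In limma with the pairs as a block 0 of the named markers of the 5 lists passed (lowest adjusted p = 0.376). Of 27 endothelial genes 16 are named. Their summed signal was 18048 to 21743 in SP and 5664 to 6196 in NSP samples, with 1883 in the reference, and 15 of the 16 had a higher SP signal in all 3 pairs, against 16.3% of all probe sets. Aplnr and Mmrn2 weighed most in the sum, with 4860.9 and 4823.9 of the 18459 in SP sample 1. With the intensity trend 15 of the 16 passed, against 1.16% of all probe sets being higher in SP. Of the 751 probe sets that the authors' deposited table gives as higher in SP, 602 were higher in all 3 pairs. The markers had been chosen in the same way, so nothing is read from their share against all probe sets. Kdr, the main VEGF receptor, had 491.5, 431.5 and 542.7 in SP samples, against 192.4, 275.4 and 280.7 in NSP samples (limma adjusted p = 0.402). Both named pericyte genes of 8 had higher SP signals in all 3 pairs, with a summed signal of 628 to 1010 in SP and 353 to 592 in NSP samples. With the trend 1 passed, Abcc9 (limma adjusted p = 0.0266), which weighed most in the sum, with 492.8 of the 663.9 in SP sample 1. Rgs5 did not pass (0.578), and its groups overlapped, with 171.1 in SP sample 1 and 190.1 in NSP sample 3.

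All 5 named basal genes of 10 had lower SP signals in all 3 pairs (sums of 1222 to 1375 in SP and 3268 to 4372 in NSP), as did all 5 named luminal genes of 14 (9538 to 17175 in SP and 29874 to 35394 in NSP) and 4 of the 5 named leukocyte genes of 10 (502 to 760 in SP and 3446 to 11174 in NSP). Among all probe sets 16.8% did so. With the intensity trend 4 basal, 5 luminal and 3 leukocyte genes passed, against 1.31% of all probe sets being lower in SP. Because these markers too had been chosen on this contrast, nothing is read from their shares against all probe sets. No marker was under the floor in these sums except 1 leukocyte value in SP. A further probe set of the leukocyte gene Laptm5, not in the sums, differed by -0.85, against -4.91 for the one used. In bulk samples fewer cells of a type and less RNA per cell cannot be told apart, and the part of the cell type makeup in the members' differences was not tested.

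The genes whose signals ran most like each member's over the 7 arrays were taken from the other named genes of the authors' deposited list. For Hes1 these were Abcg2 (Pearson r = 0.983), Tmem204 (0.981) and Smoc2 (0.979). Abcg2, whose product exports the Hoechst dye, had SP signals of 2554.2, 3510.9 and 3377.8 against NSP signals of 2050.4, 2320.3 and 2336.9, with 1216 in the reference. For Nrarp they were Tfpi (0.976), Dact1 (0.976) and Shank3 (0.965). For Notch4 they were Adamts1 (0.952), Klhl20 (0.949) and Adamts9 (0.948), and for Hey1 1429400_at Pear1 (0.979), Elavl1 (0.945) and Rap1gap2 (0.938). The genes most like Hey1 1415999_at were 3 others (0.958 to 0.965), so for Hey1 they depended on the probe set. These values describe 7 points that share the reference array and genes all chosen for a difference between SP and NSP.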

How the data were processed

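The authors deposited a linear MAS5 signal intensity for each probe set of 7 arrays, per the submitters' processing notes, whose version and scaling are not given in the sources used here. Median signals lay between 79.3 and 97.2, and they were used as deposited. The authors' deposited list holds dChip values on a log scale (read as log2), percent present calls, a paired p-value and a score (the paired test's statistic) for each listed probe set. Per the file headers these had a paired p of at most 0.05, a difference of at least 0.185 and present calls in at least 20% of each group. Gene names came from that list alone, matched to a RefSeq table of GRCm38.p6, and 1483 probe sets had 1 symbol.

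Signals were floored, log2 was taken, and probe sets above the floor on at least 3 of 6 sorted-cell arrays were tested, without 64 control probe sets. Each was tested two-sided in limma 3.58.1 under R 4.3.3 (lmFit, eBayes), with a block for the sample number and Benjamini-Hochberg adjustment over all 38115. The fit was also run on simulated data with a common spread and no pair effect, which cannot test the block or the intensity trend. The titles put 2 of the 3 pairs on a shared day, and the authors compared pairs. For pair 2 the days in the titles differ in the year only. Within pairs, the arrays' deviations from their group means had correlations of 0.039, 0.041 and 0.12. Between SP and NSP arrays of unlike number the correlations ran from -0.064 to 0.021. Named were all member probe sets, the other listed pathway genes, the 3 genes most like each member (its probe set of highest mean signal) and up to 3 markers a list. A further gene of the pathway is not reported here. The members and lists were chosen with earlier results of these data known. Array number limits the precision.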

Additional observations from a re-analysis of the deposited data

How the results depend on the processing

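All 5 probe sets kept a higher SP signal in each alternative that could be run (14 each, 13 for Notch4, which is not tested when every array must pass the floor). All their within-pair differences were above 0, so alternatives that only changed the pairs, the block, the trend or the filter could not turn the direction. Against 0 probe sets called with the pairs as a block, limma called 6 with no replicate block, 942 with an intensity trend and 381 with the trend and no replicate block, and 0 without any 1 pair (0 to 0). The cause of these moves was not tested. With no replicate block 0 of the 5 passed, also with the trend (Hes1 0.358, Hey1 1415999_at 0.311), so the calls of Hes1 (difference 0.54) and Hey1 1415999_at (0.93) under the trend rest on the block. Leaving out 1 pair moved the difference between 1.44 and 2.32 for Notch4, 0.68 and 0.99 for Nrarp, 0.47 and 0.60 for Hes1, 0.84 and 0.98 for Hey1 1415999_at, and 0.34 and 0.59 for 1429400_at. On the dChip values of the authors' deposited table read as log2 the differences of Notch4 (0.67), Nrarp (0.27) and Hes1 (0.29) moved by more than the spread of the pairs. Read as natural logs, an alternative chosen after seeing the data, those of Notch4 (0.97), Nrarp (0.39) and Hey1 1415999_at (1.26) did. Against the reference, SP Notch4 moved to 1.53 when the floor was the 40th percentile, and NSP Notch4 ran from -0.14 to 1.15 with 1 sample left out. Spen turned to -0.090 without pair 3 (-0.090 to 0.30). The dChip values could not be set against the reference array, for which the list used has no column. Signals near the floor limit what can be said of Notch4 in NSP samples.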

Other observations

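The order of the samples within each population was looked at after the values had been seen. Sample 3 had the highest signal in both SP and NSP for Notch4, Nrarp, Hes1 and Hey1 1415999_at, as it did for 4959 of all 38115 probe sets tested. For Hey1 1429400_at it was sample 2 in both populations, as for 5863 of the 38115.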
